A study of Mus musculus with 2 samples.

Results

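CD8 T cells of MC38 tumors, with and without intratumoral MSA-2, were followed across all genes. They were chosen by their own counts: a barcode needed 500 or more genes, no more than 20% of its UMIs (unique molecular identifiers, each of which counts 1 captured transcript) from the mitochondrial genome, at least 1 UMI of Cd8a or Cd8b1, and at least 1 UMI of Cd3d, Cd3e or Cd3g. Barcodes with a UMI of Foxp3 or Cd4 were left out, as were those with 0.1% or more of their UMIs in the macrophage genes C1qa, C1qb and C1qc together or in the myeloid and NK genes Tyrobp and Fcer1g together. The rule gave 899 of the 29003 barcodes in both libraries, 792 of 14386 in the untreated library and 107 of 14617 in the MSA-2 library.

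The study asked how an agonist of STING, the endoplasmic reticulum adaptor that signals cytosolic DNA, alters the cells of a subcutaneous mouse colon carcinoma. C57BL/6 mice of 6 to 8 weeks, male or female per the study's methods, carried tumors of the MC38 cell line and received either saline with 10% DMSO (labelled untreated) or MSA-2, a small-molecule STING agonist, into the tumor every 3 days for 3 doses. Tumors of 3 mice per condition were pooled on day 7 and read as 1 droplet 3′ single-cell library each, of 198135335 UMIs for untreated and 204387165 for MSA-2. The pooled mice cannot be told apart, so every difference below compares 2 libraries and every interval is a 95% interval for counting error only.

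CD8 T cells recognize peptides on MHC class I and kill the presenting cell with perforin and granzymes, and they secrete interferon-γ and chemokines when the T cell receptor is engaged. Long stimulation in tumors raises inhibitory receptors such as PD-1 and the transcription factor Tox, a state called exhaustion, while less differentiated cells keep Tcf7, Satb1 and Foxo1. Type I interferons, which STING induces in many cell types, switch on a shared set of antiviral genes in T cells through the receptor Ifnar1 and Ifnar2.

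The gated barcodes carried the markers of the cell type. T cell receptor constant genes (Trac, Trbc1 or Trbc2) had a UMI in 751 of 792 untreated and 105 of 107 MSA-2 members, and Trdc, the constant gene of γδ T cells, in 0 and 0. Cd3e had a UMI in 67.7% and 72.9% of members. Ncr1, which marks NK cells, had a UMI in 1 member of each library, and the B cell genes Cd79a or Ms4a1 in 2 and 1. The further NK genes Klrb1c or Klra8 had a UMI in 11 of 792 untreated and 6 of 107 MSA-2 members. These values follow partly from the rule and are given as a description. The gate rested on few UMIs in part of the members: 209 untreated and 18 MSA-2 members held exactly 1 UMI of Cd8a and Cd8b1 together. At the C1q limit, the highest member stood at 0.0999% in the untreated library and the lowest barcode that failed this clause alone at 0.1001%. At the Tyrobp and Fcer1g limit, the nearest values inside and outside were 0.0988% and 0.102% in the untreated library and 0.0940% and 0.124% in the MSA-2 library.

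Part of the members held RNA of other cells. Members had a median of 4067.5 UMIs without and 5983 UMIs with MSA-2, but 107 untreated and 16 MSA-2 members held more than 15000 UMIs, and these carried 54.0% and 52.7% of all UMIs of the members. Scrublet called 69 of the 792 untreated members (8.71%) and 12 of the 107 MSA-2 members (11.2%) as doublets, against 5.02% and 4.08% of all kept barcodes. Doublets were not removed. Instead, the list results and part of the gene results are also given over members with under 0.1% of UMIs in the tumor cell genes Gng11, Ccn1 and Anxa1 and under 0.1% in the collagen genes Col1a1, Col1a2 and Col3a1, called restricted CD8 T cells here, a set chosen after the data were seen. It kept 617 untreated and 77 MSA-2 members with 43.8% and 47.0% of the UMIs. Of the 53 barcode sequences that the libraries shared, 1 belonged to an untreated member and 0 to an MSA-2 member.

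CD8 T cells made up 5.64% (5.27 to 6.04%) of the 14039 kept barcodes of the untreated library and 0.766% (0.628 to 0.925%) of the 13963 kept barcodes of the MSA-2 library, a log2 ratio of -2.88 (-3.19 to -2.59). Conventional CD4 T cells, gated in the same way with Cd4 in place of Cd8a and Cd8b1, went from 59 to 11 barcodes, a log2 ratio of -2.42 (-3.49 to -1.47). Foxp3 T cells went from 86 to 10, a log2 ratio of -3.10 (-4.21 to -2.15). The share of NK cells was closer between the libraries, with 229 and 179 barcodes and a log2 ratio of -0.35 (-0.64 to -0.06). Per NK cell, CD8 T cells therefore numbered 3.46 without and 0.598 with MSA-2, a log2 ratio of -2.53 (-2.95 to -2.11). Under the tumor and collagen limits of the restricted cells, NK cells numbered 168 and 99, a log2 ratio of -0.76 (-1.13 to -0.39). Restricted CD8 T cells per such NK cell had a log2 ratio of -2.24 (-2.76 to -1.72). Per conventional CD4 T cell, CD8 T cells numbered 13.4 and 9.73, with an interval of the log2 ratio from -1.46 to 0.66. Per Foxp3 T cell they numbered 9.21 and 10.7, with an interval from -0.79 to 1.37. The lower count was thus shared by the T cell classes, within wide intervals, and differed from that of NK cells.

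**Figure D1:**
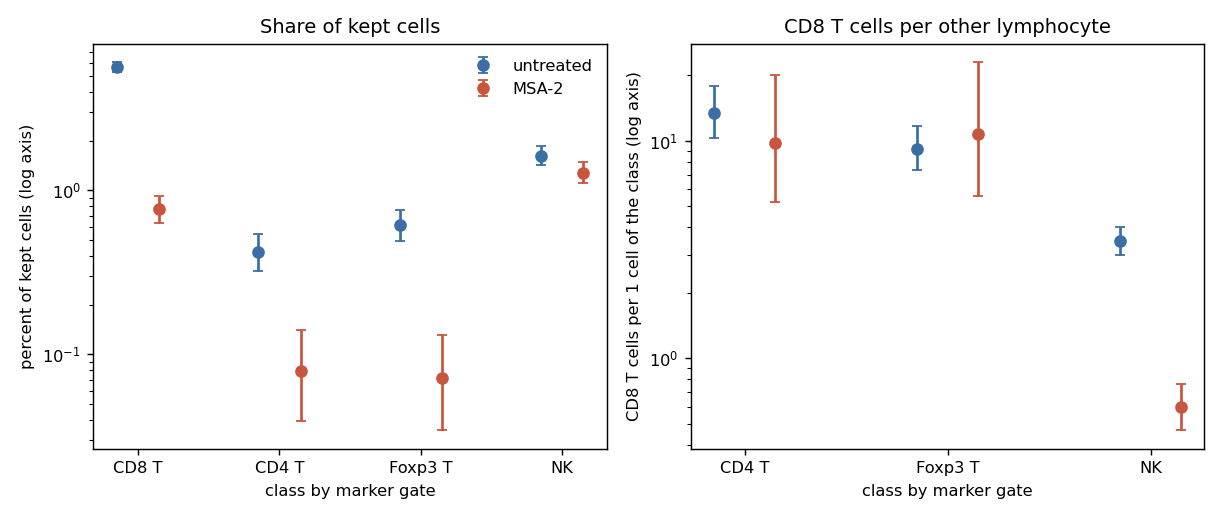
Left, percent of kept cells in each lymphocyte class (log axis); right, number of CD8 T cells per 1 cell of each other class (log axis), with exact 95% intervals for counting error in the untreated (blue) and MSA-2 (red) library. CD8 T cells fall from 5.64% to 0.766% of kept cells, and from 3.46 to 0.598 per NK cell.

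A share also moves with the other cells of a library. Neutrophils by their S100a8 and S100a9 content numbered 11 and 2345, and tumor cells 1786 and 3289. Macrophages numbered 3289 and 923. Per macrophage, CD8 T cells numbered 0.241 and 0.116, a log2 ratio of -1.05 (-1.38 to -0.74). Among CD8, conventional CD4, Foxp3 and NK cells together, CD8 T cells were 67.9% of 1166 cells in the untreated library and 34.9% of 307 in the MSA-2 library. The direction was the same over each of these denominators, with a size that depended on the denominator. How far sorting or dissociation set these shares was not tested.

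UMIs were summed over the members of each library, 6425701 untreated and 1114163 MSA-2, and scaled to counts per 1000000 UMIs (CPM). Of 32285 genes, 3402 had a mean CPM of at least 50, and a gene was called where its log2 ratio with 10 CPM added was at least 1 in size. By this rule 141 genes were at least 2-fold higher in the MSA-2 library (4.14% of those tested) and 61 at least 2-fold lower (1.79%). These counts depended on the cells: with each cell thinned to 1500 UMIs they were 190 and 160, and without cycling cells 183 and 167. Here and below, values without cycling cells leave out members with a UMI of at least 3 of 10 cell cycle genes before thinning. That class held 256 of 792 untreated and 61 of 107 MSA-2 members, more than the thinned cycling cells described below. In restricted CD8 T cells, 150 of 3329 genes were higher (4.51%) and 113 lower (3.39%). List counts of restricted cells below compare with these shares. Shared between both sets of cells were 89 higher and 41 lower genes. In NK cells, 100 of 3362 genes were higher (2.97%) and 89 lower (2.65%). Of the 99 higher genes of CD8 T cells that were also tested in NK cells, 57 were higher there and 0 lower, and of 54 lower genes 35 were lower and 0 higher. The median log2 ratio of all genes tested was -0.10 in CD8 T cells, -0.07 in restricted cells and -0.05 in NK cells. With 1 library per condition these counts have no replicate check.

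**Figure D2:**
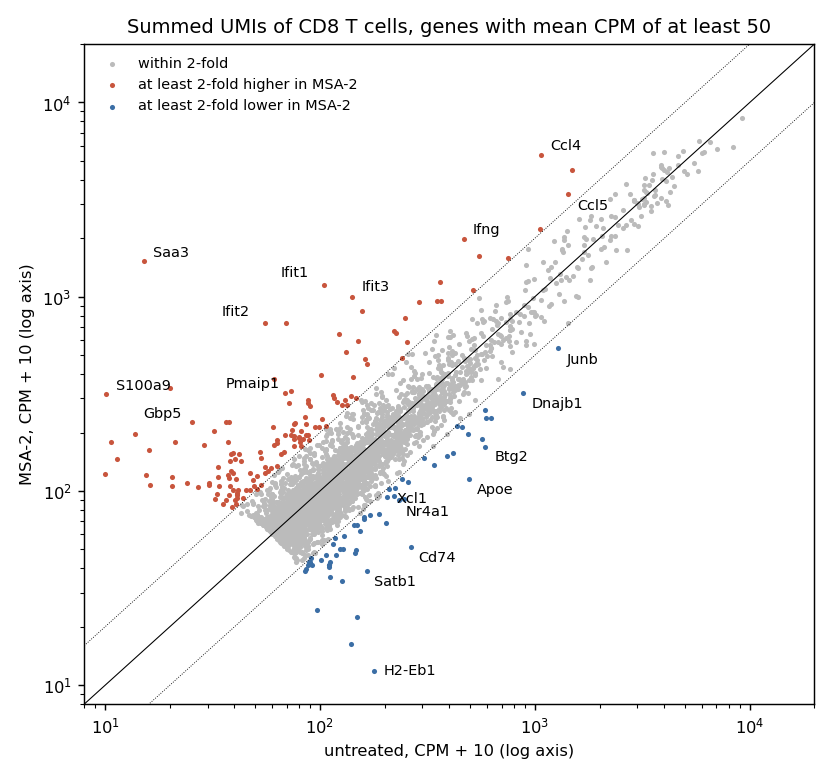
Each point is 1 of the 3402 genes with a mean CPM of at least 50 in the summed UMIs of CD8 T cells, at its CPM plus 10 in the untreated (x) and the MSA-2 (y) library, both on log axes; dotted lines mark 2-fold. Interferon-stimulated and cytokine genes such as Ifit1, Ifng and Ccl4 lie above the upper line, and Junb, Nr4a1 and Satb1 below the lower one.

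Among genes with a mean CPM of at least 100, the 15 with the highest ratios were Saa3, S100a9, Rarres2, Ifit2, Ifit1, Cxcl2, Gbp5, Ifit3, Ifit3b, Ccrl2, Mmp3, Serping1, Rsad2, Ifih1 and Ccl4. Of these, 6 are members of the interferon-stimulated list, which holds 29 of the 3402 genes tested, and 11 were under 100 CPM in the untreated library and ranked through the MSA-2 library alone. Saa3, an acute-phase protein gene, stood at 5.14 CPM untreated and 1521 CPM with MSA-2, but 95.5% of its MSA-2 UMIs lay in barcodes outside the restricted cells. The corresponding shares were 95.4% for the chemoattractant gene Rarres2, 97.9% for the metalloproteinase gene Mmp3 and 92.9% for the complement inhibitor gene Serping1. For Ifit2 and Ccl4 they were 21.4% and 24.3%, below the 53.0% of all MSA-2 UMIs that these barcodes held. Saa3 was still called higher in restricted cells, at 3.20 and 145 CPM. The 15 lowest were Cd74, Apoe, Btg2, Fn1, Sdc2, Dnajb1, Vgll4, Csrp2, Klf4, Dusp2, Nr4a1, Ccn1, Prkch, Ier2 and Nr4a3. Of these, Cd74, Sdc2, Vgll4, Nr4a1 and Nr4a3 were under 100 CPM with MSA-2 and ranked through the untreated library alone. Btg2, an antiproliferative immediate-early gene, was at 579 CPM untreated and 159 CPM with MSA-2, and at 575 and 99.3 CPM in restricted cells. Dusp2, a phosphatase gene induced by T cell activation, was at 382 and 141 CPM, and Dnajb1, which encodes a heat shock co-chaperone, at 869 and 309 CPM. In restricted cells, 12 of the 15 highest and 10 of the 15 lowest were called in the same direction. The restricted ranking added Cxcl10, Atm, Usp18, Gbe1 and Oasl1 to the highest genes. To the lowest it added H2-Eb1, Satb1, Il21r, Foxo1, Junb, Sik1, Tgfb1, Ppp1r16b and Gpr132.

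Genes of other cell types moved with the treatment in these barcodes. Their counts stand beside 4.14% higher and 1.79% lower over all genes tested. Of 12 neutrophil markers, 5 reached the mean CPM for testing and were higher, 4 of them through the MSA-2 library alone, so this count follows in part from the filter. Over all 12 the median log2 ratio was 2.10, and their summed level went from 73.9 to 1108 CPM, with S100a9 the most abundant by the mean of both libraries, as this is used below. S100a9 had 1 UMI in the untreated members and 342 in the MSA-2 members, a log2 ratio of 10.95 (8.46 to 16.25). After each cell was thinned to 1500 UMIs, 21.9% of MSA-2 CD8 T cells and 24.7% of MSA-2 tumor cells, whose median depth before thinning was 22765 UMIs (23367 untreated), held an S100a9 UMI, so CD8 T cells did not exceed tumor cells in this share. Retnlg had 0 UMIs in the untreated library and Ly6g 0 in both. Of 16 macrophage and monocyte markers, 7 were tested, 4 were lower and 0 higher, the median over all 16 was -0.50, and the sum went from 1348 to 703 CPM. The rule limits the C1q genes and Fcer1g, which are among these markers, so these values follow in part from it. C1qa and C1qb were called lower, at 135 and 37.7 CPM and at 102 and 26.0 CPM. Apoe was the most abundant of the markers at 486 and 105 CPM, close to the 397 and 102 CPM of tumor cells. Adgre1 was at 0 in the MSA-2 members. Of 11 dendritic cell and class II genes, 4 reached the mean CPM for testing, each through the untreated library alone, and were lower, a count that again follows in part from the filter. The median over all 11 was -0.25 and the sum 700 and 62.8 CPM. Cd74, the class II chaperone gene, led them at 256 and 41.3 CPM, while Flt3, Clec9a, Ccl17, Ccl22 and Siglech were at 0 in the MSA-2 members and Cd209a in both libraries. The summed level of these class II genes in tumor cells was 418 and 22.0 CPM. The part of free RNA in each of these differences was not tested.

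The stromal and lymphoid marker lists gave the following levels. Over all genes tested, 4.14% were higher and 1.79% lower. Of 10 tumor cell markers, 8 were tested, 0 were higher and 1, Ccn1, was lower. Their sum was 8800 and 8202 CPM in CD8 T cells and 3274 and 3092 CPM in restricted cells, against 14978 and 13452 CPM in tumor cells, and S100a6, which lymphocytes also express, was the most abundant at 6085 and 5548 CPM. Krt8 was at 0 in the untreated and Krt18 in the MSA-2 members. Of 9 fibroblast and endothelial markers, 5 were tested and 4 were higher, but the median over all 9 was 0.01 (-0.07 in restricted cells), with a sum of 1315 and 2706 CPM, and of 303 and 586 CPM in restricted cells. Col3a1 was the most abundant in untreated members, at 758 CPM in both libraries, and Vwf was at 0 with MSA-2. Of 8 B and plasma cell markers 0 were tested, their sum was 24.3 and 48.5 CPM, and Igkc led at 16.2 and 40.4 CPM. Of 10 NK and γδ T cell markers, 1 was tested and 0 were called, with a sum of 147 and 177 CPM. Klra4 was the most abundant of these at 108 CPM in both libraries, below its 209 and 259 CPM in tumor cells, and Trdc and Trdv4 were at 0 in both. Of 7 CD4 and regulatory T cell markers, 1 was tested and 0 were called, with a sum of 288 and 222 CPM, nearly all of it Ikzf2 at 275 and 214 CPM. Cd4 and Foxp3 were at 0 by the rule. Their part in the gene results was not tested beyond the restricted cells.

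Interferon-stimulated genes were the list with the most higher genes. Of 36 genes, 29 were tested, 22 were at least 2-fold higher and 0 lower, with a median log2 ratio of 1.50 (1.34 over all 36). Over all genes tested, 4.14% were higher and 1.79% lower, with a median of -0.10. Of the 22, 7 were under 50 CPM in the untreated library and were tested through the MSA-2 library alone, so count and median follow in part from the filter. In restricted cells 20 of 28 were higher (4.51% over all genes tested there), with a median of 1.47. In NK cells 19 of 25 were higher (2.97% over all genes tested there), with a median of 1.30. The summed level went from 2998 to 10516 CPM in CD8 T cells and from 2394 to 5876 CPM in tumor cells. Ifit1, whose product binds viral RNA, was at 94.8 and 1143 CPM, a log2 ratio of 3.59 (3.45 to 3.73). In restricted cells it was at 105 and 1652 CPM, in NK cells at 161 and 475 CPM, and in tumor cells at 76.5 and 332 CPM. Its paralogue Ifit2 was at 45.6 and 722 CPM, a log2 ratio of 3.98 (3.79 to 4.18). Rsad2, which encodes the antiviral enzyme viperin, was at 146 and 836 CPM, and the RNA sensor gene Ifih1 at 112 and 631 CPM. Isg15, a ubiquitin-like modifier gene, was at 239 and 767 CPM, and Ifi27l2a, the most abundant of the list by the mean of both libraries but below Ifit1 and Ifit3 with MSA-2, at 342 and 940 CPM. The transcription factor gene Irf7 was at 66.0 and 212 CPM, a log2 ratio of 1.68 (1.45 to 1.92). Isg20, an exonuclease gene, was at 54.0 and 63.7 CPM with an interval from -0.15 to 0.61.

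The difference was also seen cell by cell. A further 9 untreated and 2 MSA-2 members were shallower than 1500 UMIs and were not thinned. In the others the median number of the 36 genes with a UMI was 3 per untreated cell (quartiles 2 and 6) and 10 per MSA-2 cell (quartiles 7 and 15). At least 5 of them had a UMI in 36.0% (32.6 to 39.5%) of untreated and 91.4% (84.4 to 96.0%) of MSA-2 cells. For comparison, tumor cells went from a median of 3 to 6 genes and NK cells from 3 to 8. Macrophages lay above CD8 T cells in both libraries, at medians of 7 and 15 genes. At least 5 of the genes had a UMI in 24.7% and 70.1% of tumor cells and in 28.1% and 78.8% of NK cells. In macrophages these shares were 73.7% and 99.6%. Ifit1 had a UMI in 13.4% and 78.1% of CD8 T cells (29.5% and 98.1% unthinned), against 10.1% and 35.0% of tumor cells. In the untreated library the CD8 share lay near that of tumor cells, and in the MSA-2 library above it.

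The promoters of these genes were read for the core of the interferon-stimulated response element, since 22 of 29 tested members were called higher. The motif searched was GAAANNGAAA, or TTTCNNTTTC where it lies on the other strand, in the 250 bases before each RefSeq start site of GRCm38.p6. It was in 978 of 32851 windows (2.98%) and in 936 of 27025 genes (3.46%). Of the 28 interferon-stimulated genes with a window, 13 held it (46.4%), as did 9 of 15 interferon-γ GTPase and chemokine genes, 0 of 11 effector cytokine genes and 0 of 13 T cell receptor signaling genes. The following windows belong to genes that were called higher, with Ifng shown as a called gene that has no match. Ifit2, Ifih1 and Oasl1, interferon-stimulated genes that were also called higher, have 0 matches in their windows and are not shown. Ifit1 lies at chr19:34640639-34640888 and Ifit3 at chr19:34583279-34583528, both on the plus strand and with 2 matches each. Gbp5 lies at chr3:142496684-142496933 on the plus strand and Cxcl10 at chr5:92348890-92349139 on the minus strand, with 1 match each. Ifng lies at chr10:118440796-118441045 on the plus strand. Sequences run 5′ to 3′ along the gene, and capitals mark the matches.
Ifit1: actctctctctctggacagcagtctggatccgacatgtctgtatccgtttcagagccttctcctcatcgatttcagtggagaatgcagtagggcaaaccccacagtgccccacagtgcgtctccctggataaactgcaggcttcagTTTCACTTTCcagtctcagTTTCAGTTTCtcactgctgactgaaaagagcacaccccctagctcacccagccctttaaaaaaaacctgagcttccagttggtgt
Ifit3: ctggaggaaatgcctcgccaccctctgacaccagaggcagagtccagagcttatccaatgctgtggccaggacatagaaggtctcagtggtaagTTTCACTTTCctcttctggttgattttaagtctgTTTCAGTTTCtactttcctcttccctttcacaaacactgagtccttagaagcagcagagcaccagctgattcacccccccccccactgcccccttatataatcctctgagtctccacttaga
Gbp5: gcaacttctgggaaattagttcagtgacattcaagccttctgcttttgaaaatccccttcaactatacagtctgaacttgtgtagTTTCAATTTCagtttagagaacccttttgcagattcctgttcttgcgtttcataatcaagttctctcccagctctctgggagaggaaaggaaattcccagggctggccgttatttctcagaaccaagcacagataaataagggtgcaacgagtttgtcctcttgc
Cxcl10: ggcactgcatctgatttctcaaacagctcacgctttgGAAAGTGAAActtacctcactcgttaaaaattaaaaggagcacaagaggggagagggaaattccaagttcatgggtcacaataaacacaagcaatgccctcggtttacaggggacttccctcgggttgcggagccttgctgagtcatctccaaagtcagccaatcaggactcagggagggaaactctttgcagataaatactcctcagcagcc
Ifng: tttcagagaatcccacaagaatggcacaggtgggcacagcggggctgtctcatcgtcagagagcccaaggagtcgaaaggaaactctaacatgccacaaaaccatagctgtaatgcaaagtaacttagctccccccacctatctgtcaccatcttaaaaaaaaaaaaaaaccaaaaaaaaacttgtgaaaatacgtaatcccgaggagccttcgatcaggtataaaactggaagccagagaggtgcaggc
A match describes these letters only, and binding was not measured.

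GTPase, antigen processing and chemokine genes that interferon-γ induces formed a further list. Of 18, 15 were tested, 2 were higher and 0 lower, with a median log2 ratio of 0.36 (0.38 over all 18), beside 4.14% higher over all genes tested; in restricted cells 4 of 13 were higher, with a median of 0.44. Gbp5, a guanylate-binding protein gene, was at 15.4 and 217 CPM, a log2 ratio of 3.82 (3.47 to 4.17). In restricted cells it was at 18.5 and 349 CPM. It was tested through the MSA-2 library alone, so the count of this list follows in part from the filter. Cxcl10, the chemokine that attracts Cxcr3-bearing T cells, was at 1479 and 4486 CPM in all members and at 708 and 4555 CPM in restricted cells, beside 2339 and 3648 CPM in tumor cells. Psmb8, an immunoproteasome subunit gene, was at 683 and 564 CPM and the peptide transporter gene Tap1 at 116 and 134 CPM. Irf1, the transcription factor that interferon-γ induces, was at 173 and 159 CPM. Cd274, which encodes PD-L1, was at 73.9 and 128 CPM, a log2 ratio of 0.80 (0.52 to 1.07).

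**Figure D3:**
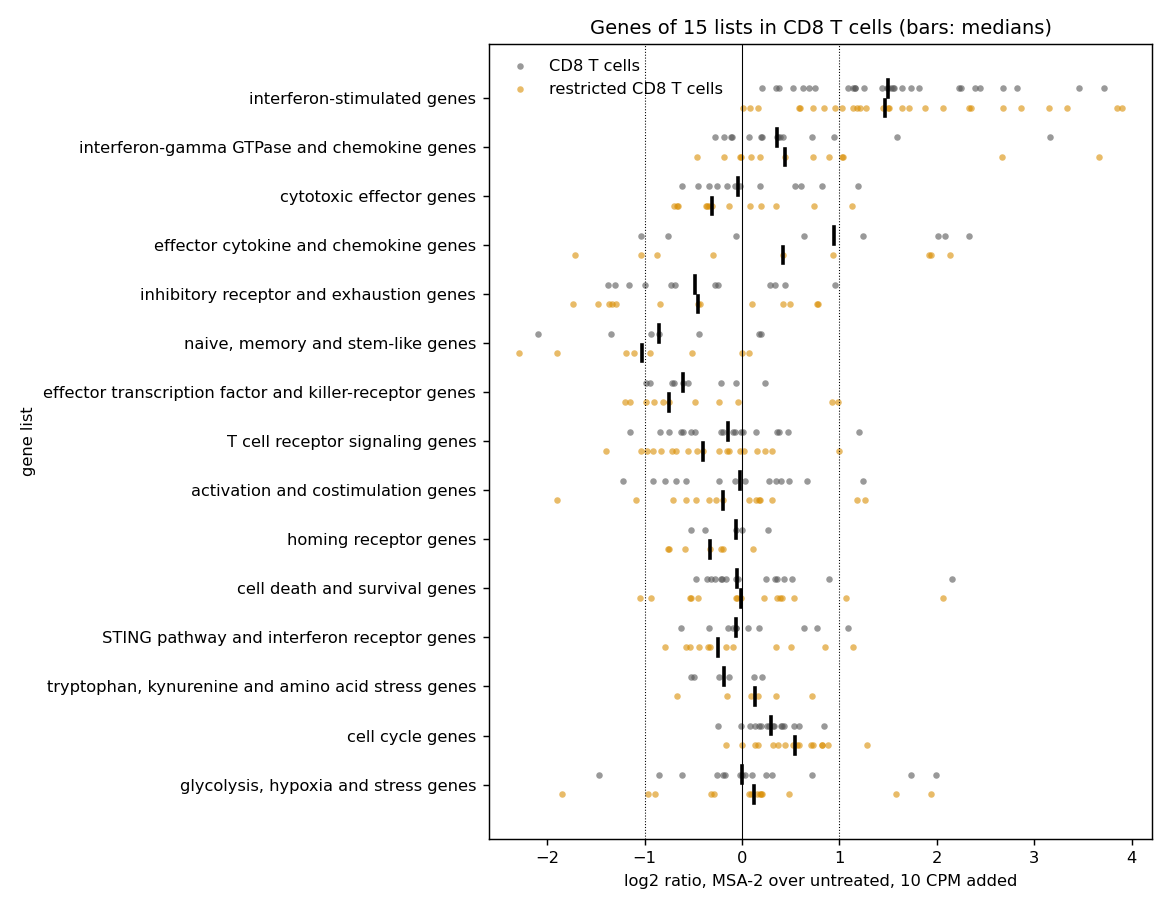
Each point is 1 tested gene of 15 lists at its log2 ratio, MSA-2 over untreated with 10 CPM added (x), in all CD8 T cells (grey) and in restricted CD8 T cells (orange); black bars are medians and dotted lines mark 2-fold. The interferon-stimulated genes have medians of 1.50 and 1.47, and the naive, memory and stem-like genes of -0.85 and -1.02.

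Ifng, Ccl4, Ccl5 and Tnf were the genes called higher in the effector cytokine and chemokine list. Of its 14 genes, 8 were tested, 4 were higher and 1 lower (4.14% higher and 1.79% lower over all genes tested), with a median log2 ratio of 0.94 (0.51 over all 14); in restricted cells 3 of 9 were higher and 2 lower, with a median of 0.42 (0.16 over all 14). Over the same 8 genes the median was 0.58 with equal weight per cell and 0.59 without cycling cells. Ifng was at 457 CPM (441 to 474) untreated and 1966 CPM (1885 to 2051) with MSA-2, a log2 ratio of 2.11 (2.03 to 2.19). In restricted cells it was at 896 and 3472 CPM. Both were above NK cells, at 197 and 427 CPM, and above tumor cells, at 2.49 and 2.83 CPM. Ccl4, a chemokine gene of activated T cells, was at 1058 and 5342 CPM, a log2 ratio of 2.34 (2.29 to 2.39), and at 1956 and 8609 CPM in restricted cells. Its level was higher in macrophages, at 8104 and 13944 CPM, and in neutrophils, at 7168 and 19554 CPM, where the untreated value rests on 11 barcodes with 14509 UMIs. The part of RNA from those cells was not tested. Tnf was at 28.5 and 145 CPM, a log2 ratio of 2.34 (2.03 to 2.66), and was tested through the MSA-2 library alone. Ccl5 was at 1423 and 3374 CPM, a log2 ratio of 1.25 (1.19 to 1.30), which was 0.94 in restricted cells and thus no longer called. Ccl3 was at 185 and 293 CPM. Xcl1, the chemokine that attracts cross-presenting dendritic cells, went the other way at 200 and 92.4 CPM, and at 393 and 113 CPM in restricted cells. In NK cells Xcl1 was at 873 and 135 CPM. Lymphotoxin-β (Ltb) was at 170 and 96.0 CPM, a log2 ratio of -0.82 (-1.12 to -0.53). Csf1, a macrophage growth factor gene, was at 90.6 and 86.2 CPM in all members but at 92.4 and 40.1 CPM in restricted cells.

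The higher Ifng level was spread over more cells. After thinning, Ifng had a UMI in 372 of 783 untreated cells, or 47.5% (44.0 to 51.1%), and in 86 of 105 MSA-2 cells, or 81.9% (73.2 to 88.7%). Without thinning these shares were 70.5% and 90.7%, and in thinned tumor cells 0.336% and 0.426%. The median thinned cell held 0 Ifng UMIs without and 3 with MSA-2. The tenth of cells with the most Ifng held 51.3% of its UMIs without and 31.1% with MSA-2. Ccl4 had the same pattern, with a UMI in 62.7% and 90.5% of cells (86.9% and 98.1% unthinned), against 18.5% and 30.7% of tumor cells, and a median of 1 and 11 UMIs. Among the genes plotted by share of thinned cells, shares were larger in MSA-2 cells for Ifng, Ccl4, Ifit1 and Pmaip1 and smaller for Nr4a1 and Cxcr6. For Gzmb, Pdcd1 and Tox the intervals of the libraries overlapped. The plotted genes come from lists chosen with earlier results of these data known, so they do not stand for all genes. Their intervals hold counting error only.

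**Figure D4:**
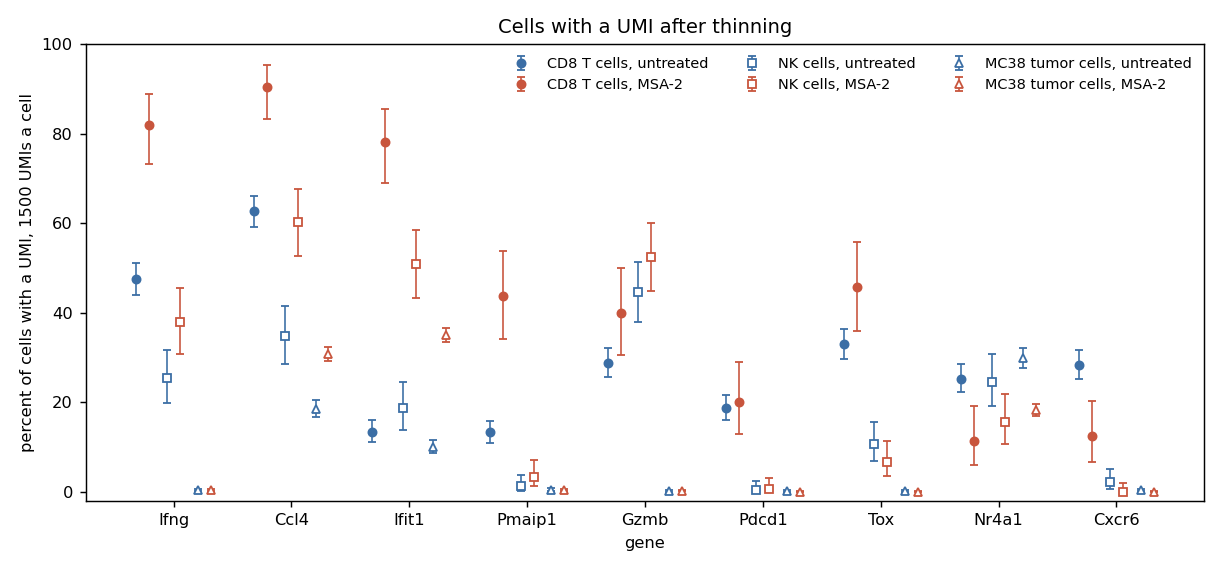
Percent of cells with a UMI of 9 genes after thinning to 1500 UMIs a cell, with exact 95% intervals for counting error, in CD8 T cells (filled circles), NK cells (open squares) and tumor cells (open triangles) of the untreated (blue) and MSA-2 (red) library. Ifng goes from 47.5% to 81.9% in CD8 T cells and stays under 1% in tumor cells, while Nr4a1 in CD8 T cells lies at or below the share in tumor cells.

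Genes of killing differed little beside the cytokines. Of 18 cytotoxic effector genes, 12 were tested, 1 was higher and 0 lower (4.14% higher and 1.79% lower over all genes tested), with a median log2 ratio of -0.05 (-0.06 over all 18); in restricted cells the median was -0.31 with 1 of 13 higher. The higher gene was Serpinb6b, an inhibitor of granzyme-like proteases, at 92.6 and 223 CPM, a log2 ratio of 1.27 (1.05 to 1.49). Gzmb, the caspase-activating granzyme, was at 268 CPM (256 to 281) and 395 CPM (359 to 434), a log2 ratio of 0.56 (0.40 to 0.71) that was 0.20 (0.02 to 0.37) in restricted cells. It had a UMI in 28.9% and 40.0% of thinned cells (46.2% and 64.5% unthinned), against 0.112% and 0.274% of tumor cells. Prf1, the pore-forming protein gene, was at 116 and 133 CPM. Nkg7, a granule protein gene, was at 754 and 547 CPM. Gzma was at 108 and 102 CPM and came from few cells, 58 untreated and 5 MSA-2 thinned cells. Its log2 ratio depended on the cells used: it was -1.32 with equal weight per cell, -1.41 with each cell thinned and -4.18 without cycling cells. NK cells differed from CD8 T cells in the granzymes, in both directions: Gzma was at 449 and 1451 CPM in NK cells. Gzmf was at 162 and 1351 CPM there, beside 262 and 258 CPM in CD8 T cells, and Gzmc at 3558 and 1361 CPM, beside 46.8 and 90.7 CPM. Fasl, the death ligand gene, was at 46.2 and 30.5 CPM, under the mean CPM for testing.

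Inhibitory receptor and exhaustion genes did not move together. Of 18, 12 were tested, 0 were higher and 3 lower (1.79% lower over all genes tested), with a median log2 ratio of -0.48; in restricted cells 5 of 13 were lower (3.39% over all genes), with a median of -0.45. Over all 18 genes the medians were 0.00 and -0.27. In all CD8 T cells 6 of the 18 were under the mean CPM for testing, so 0.00 does not decide on a shift. Over the tested genes the median lay between -0.72 and -0.42 across the alternatives. Pdcd1, which encodes PD-1, was at 97.1 and 126 CPM, and had a UMI in 146 of 783 (16.0 to 21.6%) and 21 of 105 thinned cells (12.8 to 28.9%) (38.8% and 57.9% unthinned), against 0.168% and 0 of tumor cells. Havcr2 (TIM-3) was at 61.3 and 50.3 CPM and Ctla4 at 121 and 71.8 CPM. Tox was at 211 and 418 CPM, a log2 ratio of 0.99 (0.83 to 1.14), which lay just under the call, and of 0.78 (0.61 to 0.95) in restricted cells. With 10 CPM added it was 0.96, and 1.04 without called doublets, where it passed the call. In NK cells Tox was at 49.7 and 15.6 CPM. Lag3 was at 30.2 and 62.8 CPM and Tigit at 14.0 and 27.8 CPM, both under the mean CPM for testing. The 3 lower genes were Nr4a1, Nr4a3 and Cxcr6. Nr4a1, an orphan nuclear receptor gene that T cell receptor signals induce, was at 223 and 79.9 CPM in CD8 T cells and at 218 and 124 CPM in tumor cells. Nr4a3 was at 178 and 66.4 CPM, a log2 ratio of -1.42 (-1.78 to -1.08). With 10 CPM added it was -1.30, and -0.71 without cycling cells, where it was no longer called. Cxcr6, a receptor that holds T cells in tissue, was at 139 and 56.5 CPM, with a UMI in 28.4% and 12.4% of thinned cells (51.3% and 38.3% unthinned). In tumor cells Cxcr6 had a UMI in 0.336% and 0 of cells.

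Genes of less differentiated T cells were lower where they were called. Of 14 naive, memory and stem-like genes, 7 were tested, 0 were higher and 2 lower (1.79% lower over all genes tested), with a median log2 ratio of -0.85 (-0.65 over all 14). In restricted cells 4 of 8 were lower (3.39% over all genes tested there), with a median of -1.02 (-0.80 over all 14). The median was -0.40 with each cell thinned and -0.49 without cycling cells. Satb1, a chromatin organizer of T cells, was at 155 and 28.7 CPM, a log2 ratio of -2.44 (-2.99 to -1.93). Foxo1, the transcription factor that maintains homing and memory genes, was at 108 and 36.8 CPM, a log2 ratio of -1.56 (-2.05 to -1.10). Satb1 and Foxo1 were tested through the untreated library alone, so the count follows in part from the filter. Both were also lower in NK cells, where Satb1 was at 238 and 62.2 CPM. In restricted cells Bach2 and Ccr7 were called as well, at 283 and 118 CPM and at 119 and 49.7 CPM. Ccr7 was tested there through the untreated library alone. Bcl2, the survival gene, was at 208 and 240 CPM. Tcf7 was at 17.7 and 10.8 CPM and Il7r at 46.2 and 32.3 CPM, both under the mean CPM for testing.

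Among effector transcription factors, Tbx21 and Id2 lay close to the call. Of 19 effector transcription factor and killer-receptor genes, 9 were tested and 0 were called, with a median log2 ratio of -0.60 (-0.33 over all 19). In restricted cells 2 of 11 were lower and 0 higher (3.39% lower and 4.51% higher over all genes tested there), with a median of -0.75. Those 2 were Tbx21, the T-bet gene, at 189 and 76.4 CPM, and Id2, an inhibitor of E proteins, at 675 and 298 CPM in restricted cells. Over all members Tbx21 was at 99.1 and 46.7 CPM and Id2 at 380 and 188 CPM, log2 ratios of -0.95 and -0.98 with 10 CPM added, just under the call. Prdm1, which encodes the terminal differentiation factor Blimp-1, was at 33.8 and 76.4 CPM in restricted cells, a log2 ratio of 1.18 on the plain scale. Irf4, which T cell receptor signals induce, was at 52.6 and 109 CPM there, a log2 ratio of 1.05. With 10 CPM added, both lay under the call. Klrk1, the NKG2D gene, was at 147 and 87.1 CPM, and Runx3 at 181 and 116 CPM.

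T cell receptor signaling genes were mostly within 2-fold. Of 21, 18 were tested, 1 was higher and 1 lower (4.14% higher and 1.79% lower over all genes tested), with a median log2 ratio of -0.15 (-0.20 over all 21); in restricted cells 0 of 19 were higher and 2 lower, with a median of -0.40. Themis, a signaling gene of thymocytes and T cells, was at 244 and 573 CPM, a log2 ratio of 1.23 (1.10 to 1.37), and was under the call in restricted cells at 458 and 921 CPM. Cd6, a scavenger receptor that tunes T cell signals, was the lower gene at 81.9 and 31.4 CPM. It was tested through the untreated library alone, so this count follows in part from the filter. Cd3e was at 162 CPM in both libraries, while Cd3g was at 687 and 450 CPM and Trbc2 at 666 and 366 CPM. The rule requires a UMI of Cd3d, Cd3e or Cd3g, so the levels of Cd3e and Cd3g follow in part from it. No conclusion on the receptor complex is drawn from them.

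Among activation genes, the immediate-early Junb was lower. Of 17 activation and costimulation genes, 14 were tested, 1 was higher and 1 lower (4.14% higher and 1.79% lower over all genes tested), with a median log2 ratio of -0.02 (-0.07 over all 17); in restricted cells 2 of 15 were higher and 2 lower, with a median of -0.20. Junb, an AP-1 subunit gene, was at 1269 and 538 CPM, a log2 ratio of -1.24 (-1.36 to -1.12), and at 1262 and 332 CPM in restricted cells, beside 1059 and 734 CPM in tumor cells. Fos was at 982 and 563 CPM and Jun at 1800 and 1203 CPM. Il2ra, the high-affinity interleukin-2 receptor gene, was the higher gene at 31.0 and 87.1 CPM, a log2 ratio of 1.49 (1.13 to 1.85). It was tested through the MSA-2 library alone, so this count follows in part from the filter. Cd69 was at 188 and 251 CPM and the costimulatory receptor gene Icos at 94.8 and 45.8 CPM. Of 15 homing receptor genes, 5 were tested and 0 were called, with a median of -0.06 (-0.14 over all 15), and 0 of 7 in restricted cells, with a median of -0.33; the integrin gene Itgb1 was the most abundant at 231 and 175 CPM, and Cxcr3 was at 7.94 and 6.28 CPM.

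Pmaip1, which encodes the pro-apoptotic protein Noxa, was the called gene of the cell death list. Of 28 cell death and survival genes, 16 were tested, 1 was higher and 0 lower (4.14% higher and 1.79% lower over all genes tested), with a median log2 ratio of -0.05; in restricted cells 2 of 15 were higher and 1 lower. Pmaip1 was at 63.0 and 316 CPM, a log2 ratio of 2.33 (2.12 to 2.54), and at 125 and 554 CPM in restricted cells. It had a UMI in 13.3% (11.0 to 15.9%) and 43.8% (34.1 to 53.8%) of thinned cells (30.1% and 85.0% unthinned), against 0.448% and 0.334% of tumor cells. In NK cells it was at 6.93 and 13.7 CPM, so the level in CD8 T cells stood apart from both of these cell types in each library. Cflar, an inhibitor of caspase-8 activation, was called higher in restricted cells at 77.1 and 172 CPM, and Tnfrsf1b, the TNF receptor 2 gene, was lower at 153 and 68.8 CPM. Mcl1, a survival gene of the Bcl-2 family, was at 303 and 215 CPM. Bax was at 210 and 204 CPM. Mlkl, the executor of necroptosis, was at 30.7 and 65.5 CPM, under the mean CPM for testing.

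The receptors for interferon stayed within 2-fold in CD8 T cells. Of 18 STING pathway and interferon receptor genes, 11 were tested, 1 was higher and 0 lower (4.14% higher and 1.79% lower over all genes tested), with a median log2 ratio of -0.06 (0.00 over all 18); in restricted cells 1 of 12 was higher, with a median of -0.25. With each cell thinned the median was -0.37. The higher gene was Nfkbia, the inhibitor that NF-κB induces, at 1045 and 2235 CPM, beside 1477 and 2391 CPM in tumor cells. It was no longer called without cycling cells, at a log2 ratio of 0.90, or with a Cd8b1 UMI required, at 0.92. Ifnar1 was at 66.5 and 59.2 CPM and Ifnar2 at 79.8 and 83.5 CPM. Ifngr1 was at 365 and 233 CPM, a log2 ratio of -0.65 (-0.84 to -0.46). STING itself, listed as Tmem173, was at 13.1 and 21.5 CPM and the DNA sensor gene Cgas at 14.0 and 42.2 CPM, both under the mean CPM for testing. Of 17 tryptophan, kynurenine and amino acid stress genes, of which Ddit3 was not among the features, 6 were tested and 0 were called, with a median of -0.18 (-0.11 over all 17), and 0 of 6 in restricted cells, with a median of 0.13. Slc3a2, a subunit of amino acid transporters, was at 338 and 370 CPM, and Ido1, the tryptophan-degrading enzyme gene, at 0.311 and 4.49 CPM from 2 and 5 UMIs.

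A larger share of MSA-2 CD8 T cells carried cell cycle genes. A cell was counted as cycling where at least 3 of 10 cell cycle genes had a UMI after thinning to 1500 UMIs. The share was 94 of 783 untreated cells, or 12.0% (9.81 to 14.5%), and 31 of 105 MSA-2 cells, or 29.5% (21.0 to 39.2%), a log2 ratio of 1.30 (0.66 to 1.90). Across 4 further random draws of the thinning the log2 ratio was between 1.08 and 1.21. Unthinned, 256 of 792 and 61 of 107 members passed, and this larger class is the one left out in values given without cycling cells. In restricted cells the share was 10.2% and 31.6%, a log2 ratio of 1.63 (0.89 to 2.33). NK cells had shares of 13.8% and 21.2%, with an interval of the log2 ratio from -0.11 to 1.35, and tumor cells of 24.7% and 22.2%. The part of free RNA in these counts was not tested. By summed levels, 16 of 18 cell cycle genes were tested and 0 were called (4.14% higher and 1.79% lower over all genes tested). Their median log2 ratio was 0.30 (0.27 over all 18). In restricted cells the median was 0.55 and 1 of 16, Cdc20, was higher (4.51% over all genes tested there). With so few genes these counts cannot be told apart from the shares over all genes. Hmgb2, a chromatin protein gene of dividing cells, was at 541 and 980 CPM and the proliferation marker gene Mki67 at 92.8 and 139 CPM.

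Cycling and other restricted cells of the MSA-2 library both had the higher Ifng and Ifit1 levels. In the 24 cycling MSA-2 cells Ifng was at 4472 CPM (4177 to 4782) and in the 52 others at 2903 CPM (2723 to 3093). In the untreated library it was at 925 CPM in 62 cycling and 891 CPM in 547 other cells. Ifit1 was at 1706 and 1615 CPM in cycling and other MSA-2 cells, and at 47.2 and 116 CPM in those of the untreated library. Gzmb was at 824 and 466 CPM in cycling and other cells with MSA-2 and at 752 and 469 CPM untreated. It thus differed more between these classes than between the libraries, by under 2-fold each time.

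**Figure D5:**
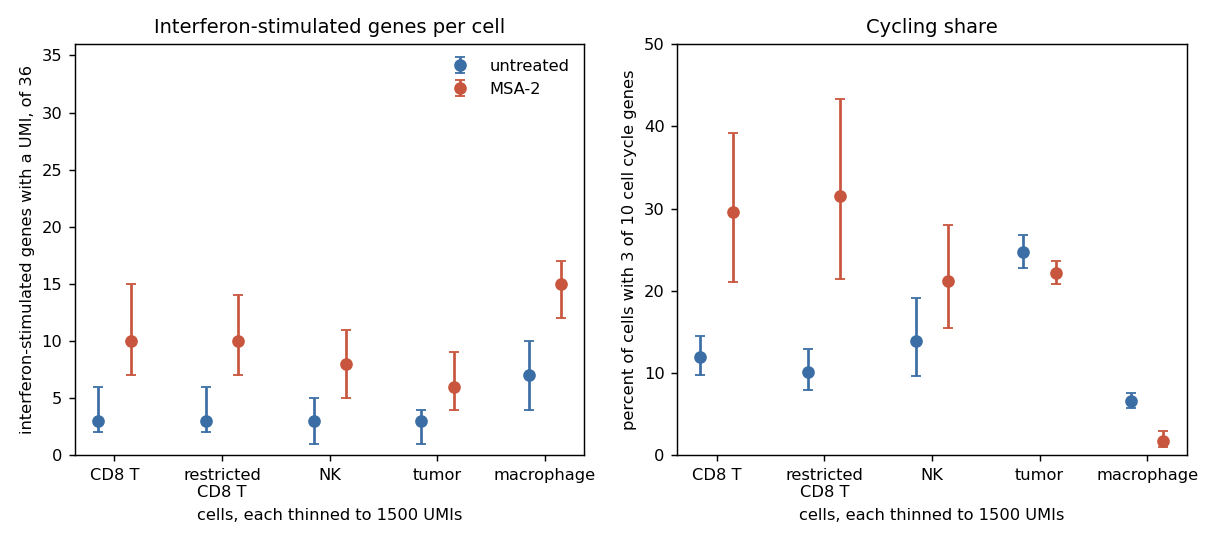
Left, number of 36 interferon-stimulated genes with a UMI per cell (points: medians; bars: quartiles); right, percent of cells with at least 3 of 10 cell cycle genes (bars: exact 95% intervals for counting error), each cell thinned to 1500 UMIs, in the untreated (blue) and MSA-2 (red) library. CD8 T cells go from a median of 3 to 10 genes and from 12.0% to 29.5% cycling.

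Metallothionein genes were the higher ones among the genes of glycolysis, hypoxia and stress. Of 17, of which Aldoa was not among the features, 15 were tested, 2 were higher and 1 lower (4.14% higher and 1.79% lower over all genes tested), with a median log2 ratio of 0.00; in restricted cells 2 of 14 were higher and 1 lower, with a median of 0.12. The median was -0.30 without called doublets and -0.34 without cycling cells. The 2 higher genes encode metal-binding proteins: Mt1 was at 350 and 1185 CPM and Mt2 at 140 and 584 CPM, beside 559 and 1301 CPM and 228 and 603 CPM in tumor cells. Mt1 was no longer called without cycling cells, at a log2 ratio of 0.40, or without cells of over 15000 UMIs, at 0.82, and Mt2 was at 1.16 and 1.06. Dnajb1 was the lower gene. Hspa1a, an inducible chaperone gene, was at 477 and 309 CPM and Hsp90aa1 at 1580 and 1398 CPM. The glycolysis gene Gapdh was at 2890 and 3100 CPM and Ldha at 805 and 821 CPM. Hif1a, the hypoxia-responsive transcription factor gene, was at 254 and 425 CPM.

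T cell receptor β segments were seen in few members. Exactly 1 of 35 Trbv genes had a UMI in 42 of 792 untreated members (5.30%) and in 12 of 107 MSA-2 members (11.2%). These cells used 14 segments without and 5 with MSA-2. Trbv12-2, the segment with at least 10 cells, was in 10 of 42 (23.8%, 12.1 to 39.5%) and 3 of 12 cells (5.49 to 57.2%). Trbv2, chosen after its values were seen, was in 1 of 42 untreated and 6 of 12 MSA-2 cells (21.1 to 78.9%). Conventional CD4 T cells gave 2 and 1 such cells. With 3 pooled mice per library, a clone of 1 mouse and a shift in all cannot be told apart.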

How the data were processed

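The deposited values are UMI counts per barcode and gene, which the authors made from droplet 3′ libraries with Cell Ranger 7.0.0 on mm10, per the submitters' processing notes; the file headers name Cell Ranger 7.0.1. They were read as 2 filtered count tables with no cell labels. Barcodes with 500 or more genes and no more than 20% mitochondrial UMIs were kept, 97.6% without and 95.5% with MSA-2, at median depths of 8775 and 9706 UMIs. Counts were summed per class and library, scaled to CPM and compared as described above, using pandas 2.3.3, numpy 2.4.6 and scipy 1.17.1 under Python 3.11.15. Doublets were called by Scrublet within scanpy 1.11.5, and figures were drawn by matplotlib 3.10.9. The functions for ratios and intervals were tested on simulated data. With 1 library per condition no test across replicates was made, and a single gene has a plain ratio of CPM with an exact binomial interval, and a level an exact Poisson interval.

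Tumor cells, NK cells, macrophages and neutrophils were gated by marker UMIs. Genes named are members of 23 lists with 370 genes, of which 2 were not among the features, and the 15 highest and lowest genes with a mean CPM of at least 100; the ranking over restricted cells was added after the data were seen. Members and lists were chosen with earlier results of these data known. Alternatives covered doublets, cell filters, the gate, denominators, the CPM added, low values, TMM scaling by edgeR 4.0.16 in R 4.3.3, weight and depth per cell, and cycling cells. Promoter windows come from RefSeq.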

Additional observations from a re-analysis of the deposited data

How the results depend on the processing

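The CD8 share and the cycling share kept their direction in all alternatives. Numbers of higher and lower genes have no direction, so for them only a change in size could be seen. The log2 ratio of the CD8 share was -2.58 with at least 1000 genes and 10% mitochondrial UMIs at most, -2.34 over cells with a Ptprc UMI, -3.77 per tumor cell and -0.96 over the 4 lymphocyte classes, where it no longer reached 2-fold; the cause was not tested. The cycling ratio lay between 0.82 and 1.65. Higher genes numbered 218 at a mean CPM of at least 20 and 293 with no filter on low values, and lower genes 93 and 125, since more genes were tested. Lower genes numbered 93 with at least 2 Cd8 UMIs, 95 with equal weight per cell, 160 with each cell thinned to 1500 UMIs and 167 without cycling cells. In alternatives chosen after seeing the data they numbered 113 in restricted cells and 109 without cells of over 15000 UMIs; the cause was not tested. Of the 141 higher genes, 87 were also higher without cycling cells and 95 without the deep cells, and 19 and 17 had ratios under 0 there. Over 40 genes and 15 list medians, 535 of 715 values in the 13 alternatives that can change them stayed in the interval or range of the result, 180 moved and 0 reversed, where only values past 2-fold were counted as reversed. Gzma, Prf1 and 5 list medians, all under 2-fold in the reported result, changed sign in some alternatives, and Gzma passed 2-fold lower in 3, down to -4.18 without cycling cells. Tox passed 2-fold higher in 1, at 1.04, and Trbc2 passed 2-fold lower in 2, down to -1.08. Of the genes past 2-fold, 11 fell under it in some of these alternatives. Ccl5 and Themis stayed past it in 9, with the smallest values 0.86 and 0.92, and Fn1 in 10, with -0.90. Mt1, Rarres2, Nfkbia and Xcl1 stayed in 11, with 0.40, 0.75, 0.90 and -0.91. Dusp2, Nr4a3, Serpinb6b and Il2ra stayed in 12, with -0.75, -0.71, 0.95 and 0.94. The cause was not tested.

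No paired analysis was possible because each condition has 1 library. The 3 mice of a pool cannot be separated, so differences between mice, sorts or runs are not in any interval. The 107 MSA-2 members set the precision, and genes under a mean CPM of 50 were not tested. Members outside the restricted cells hold over 50% of the UMIs, and the part of free RNA was not measured. The MSA-2 library has 11 conventional CD4 and 10 Foxp3 T cells, too few for gene levels.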
